A study of Mus musculus with 6 samples.

Results

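The comparison described here is that of the day 4 library labelled 4-OHT with the day 4 library labelled EtOH, 2 of the 6 libraries of the series. The pair was chosen by the day in its labels, and the other 4 libraries, 2 of each label, were of day 6. All 6 were sequenced from the RNA of Lgr5-GFP+ cells, sorted out of organoids grown from mouse small intestine. The mice carried the Cre transgene Villin-CreERT2, the reporter allele Lgr5-EGFP-IRES-CreERT2 and, on both chromosomes, the floxed allele Ythdf2fl/fl. Every group, EtOH included, carried these alleles, and the groups differed by the agent, 4-OHT or EtOH at 0.5 µM by the series text, and by the day of sorting, 4 or 6. 4-OHT (4-hydroxytamoxifen) is the ligand that activates the CreERT2 recombinase, and EtOH (ethanol) is the solvent given without it. The villin promoter drives CreERT2 throughout the intestinal epithelium, and the Lgr5 allele drives the reporter in stem cells. How many mice or cultures a library came from is not stated in the labels, so the p-values below measure the spread between these libraries. At day 6 the libraries of a label differed in sex chromosome transcripts, given below, so that spread was not technical alone. With 1 library per label at day 4, a ratio compares 2 libraries and has no replicate check.

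Stem cells at the base of the intestinal crypt, marked by Lgr5, divide and give rise to absorptive enterocytes and to secretory cells, namely Paneth cells with their antimicrobial peptides, mucus-making goblet cells, hormone-making enteroendocrine cells and tuft cells. Ythdf2 encodes a reader protein that binds mRNA carrying N6-methyladenosine (m6A) and brings it to decay. Immediate early genes are transcribed within minutes of growth factor or stress signals without new protein synthesis, and the transcription factor p53 switches on genes of cell cycle arrest, repair and death when DNA is damaged.

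The day 4 libraries held 19364354 (EtOH) and 14345379 (4-OHT) gene counts, against 17197322 to 21461835 at day 6. They held counts for more genes, 26521 (EtOH) and 24195 (4-OHT) against 19522 to 20622, and larger shares of reads outside genes, 6.19% and 6.70% against 2.63% to 3.76%. The number codes of the library names also belong to separate series on the 2 days, so that day and preparation cannot be told apart. Sex chromosome transcripts differed as well. Xist, the RNA of the inactive X chromosome in females, had 25629 (EtOH) and 17996 (4-OHT) counts at day 4 and 10614 and 17803 counts in replicate 1 of EtOH and of 4-OHT at day 6. In replicate 2 it had 19 and 2. The Y-linked genes Kdm5d, Eif2s3y, Uty and Ddx3y together had 4004 and 3862 counts in replicate 2, 0 in replicate 1, and 32 (EtOH) and 25 (4-OHT) at day 4. The day 4 pair thus matched the day 6 libraries numbered 1 in these transcripts, apart from the few Y-linked counts.

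Ythdf2, the floxed gene (chromosome 4, 131911065 to 131939614, minus strand, GRCm39), was examined first because it checks the labels. It had 1483 counts in the EtOH library and 2466 in the library labelled 4-OHT, or 76.1 and 166 CPM (counts scaled to a common library size and for library composition). The log2 ratio, 4-OHT over EtOH with a prior count of 2, was 1.12. At day 6 it stood at 82.7 and 76.15 CPM with EtOH and at 208.5 and 205.1 CPM in the libraries labelled 4-OHT (log2 fold change 1.37, edgeR adjusted p 0.0018). The direction on both days is opposite to a loss of transcript, and counts per gene do not show whether the floxed exons were present. Whether labels were exchanged cannot be told from these counts, and an exchange would turn the sign of every ratio below. The libraries are therefore called by their labels. Of 24 genes of the m6A machinery at a mean of at least 5 CPM, Ythdf2 was the only one that differed at least 2-fold at day 4. Lgr5, whose locus carries the sorted reporter, had 7182 counts (368 CPM) in the EtOH library and 4035 (271 CPM) in the library labelled 4-OHT, a log2 ratio of −0.44. Kif26b, a kinesin gene named in the series title, had 78 and 3 counts, a ratio of 0.0504 (0.0102 to 0.153, the exact binomial interval at 95% confidence). This interval and those below cover counting error only.

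All 11 epithelial markers lay above 5 CPM in both libraries, and Krt8, a keratin of simple epithelia, had 29557 and 34166 counts. The 18 immune cell markers summed to 11.1 CPM (EtOH) and 10.4 CPM (4-OHT), of which Cd68 made up 7.80 and 7.74 CPM. Cd4, Cd8a, Tyrobp and Nkg7 were at 0 in both libraries. The 14 fibroblast and smooth muscle markers summed to 6.21 and 11.6 CPM, mostly Vim at 3.33 and 7.40 CPM, with Des, Tagln, Lum and Actg2 at 0. The 11 endothelial markers summed to 27.6 and 27.9 CPM, mostly from the hyaluronan receptor Lyve1 (9.80 and 9.75 CPM), the adhesion molecule Esam (6.10 and 8.01 CPM) and Vwf, von Willebrand factor (5.54 and 5.38 CPM). Of the others, Cdh5, Cldn5 and Kdr were at 0 in the library labelled 4-OHT and at 1 to 3 counts with EtOH. The part of such cells in the results below was not tested. Markers of neurons and glia summed to 4.72 and 4.78 CPM and those of red blood cells to 0.821 and 0.875 CPM.

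Of 10388 genes at a mean of at least 5 CPM in the pair, 314 (3.02%) differed at least 2-fold. The library labelled 4-OHT was the higher one for 260 of them (2.50%) and the lower one for 54 (0.520%). At least 4-fold, 70 genes were higher and 3 lower, and 22 were higher by at least 8-fold against 0 lower. The median log2 ratio of all 10388 genes was −0.02, and the values from the 1st to the 99th percentile ran from −0.86 to 1.68. The genes nearest the level threshold had means of 5.002 CPM (inside) and 4.996 CPM (outside). Of the 260 higher genes, 69 were members of the 21 gene lists described here and 191 were in none. A lower level of an RNA in bulk samples can come from fewer cells of a type or from less RNA per cell, which cannot be told apart here.

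**Figure D1:**
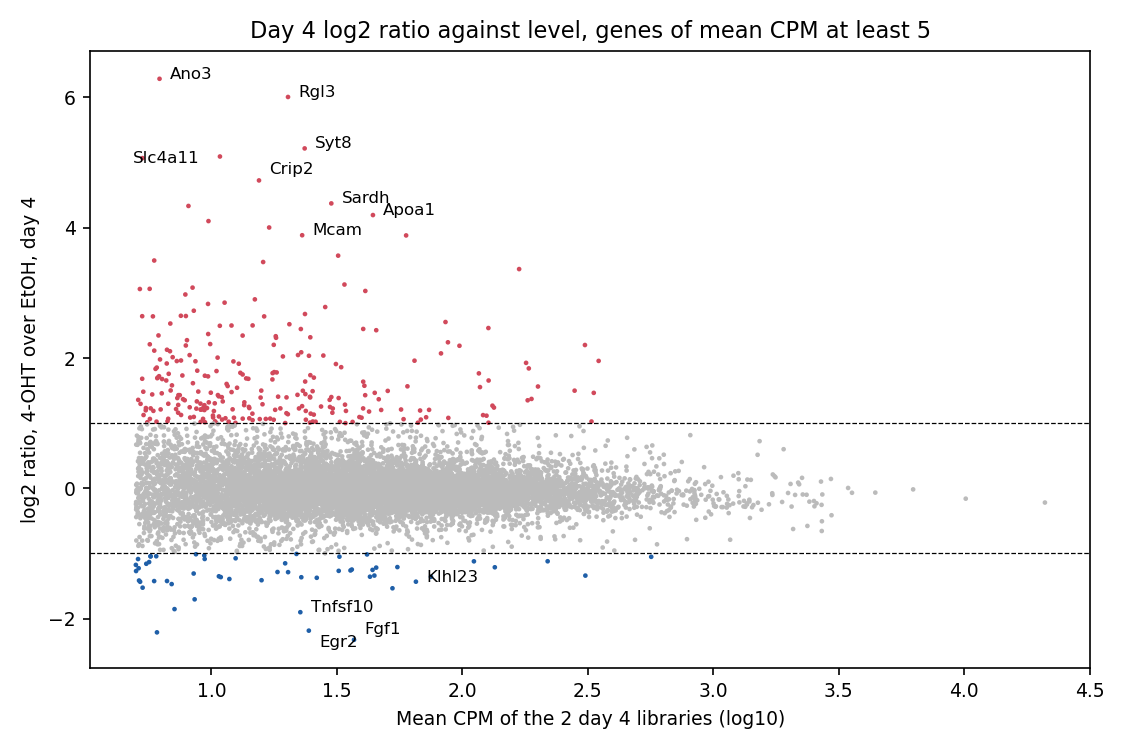
Day 4 log2 ratio, 4-OHT over EtOH (vertical axis), against the mean CPM of the pair on a log10 scale (horizontal axis) for 10388 genes. Each point is 1 gene, with genes at least 2-fold higher in red (260) and at least 2-fold lower in blue (54), and the dashed lines mark 2-fold. The largest ratios lie at low mean levels and on the upper side.

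The largest ratio was that of Ano3, a member of the anoctamin membrane protein family (chromosome 2, 110485546 to 110781268). It had 1 count with EtOH and 184 in the library labelled 4-OHT, a 241-fold difference (exact interval 42.8 to 9582). At day 6, Ano3 stood at 0 and 0.232 CPM with EtOH and at 0.841 and 0.699 CPM in the libraries labelled 4-OHT, against 12.4 CPM at day 4. Rgl3, a guanine nucleotide exchange factor for Ral GTPases (chromosome 9, 21880007 to 21900777), had 10 and 593 counts, a log2 ratio of 6.01. Its CPM were 0.513 and 39.9 at day 4, 0.741 and 0.580 with EtOH at day 6, and 49.98 and 66.8 with 4-OHT at day 6. Rgl3 was thus low in all 3 EtOH libraries and high in all 3 of the other label.

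Syt8, a synaptotagmin of membrane traffic, had 22 and 683 counts (log2 ratio 5.22). Slc4a11, a membrane transporter, had 10 and 314 (5.09), or 21.1 CPM in the library labelled 4-OHT at day 4 against 4.44 and 3.12 CPM at day 6. Tesc, which encodes the calcium-binding protein tescalcin, had 4 and 155 counts (5.07). Crip2, a LIM domain gene, and Sardh, the mitochondrial sarcosine dehydrogenase, had ratios of 4.73 and 4.37. All 4 day 6 libraries kept the same order of labels for these 5 genes, with no overlap. Of their exon bases, 14.0% of Crip2 overlap Gm56510 and 3.10% of Sardh overlap Sardhos, so that part of their counts is uncertain.

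Afp, the fetal plasma protein alpha-fetoprotein, had 13 and 231 counts (4.33), and Apoa1, the main apolipoprotein of high-density lipoprotein, 87 and 1243 (4.20). Both were low in the day 4 EtOH library in particular. Afp stood at 0.667 CPM there against 22.9 and 19.6 CPM in the EtOH libraries of day 6, and Apoa1 at 4.46 against 43.7 and 30.1 CPM. Zfp92, an X-linked zinc finger gene, had 19 and 275 counts (4.10), and Il1rn, the antagonist of the interleukin 1 receptor, 37 and 477 (4.00). Mcam, a cell adhesion molecule, had 55 and 642 (3.89), and 15.3% of its exon bases overlap Gm10687. Mcam reached 43.2 CPM in the library labelled 4-OHT at day 4 and lay between 1.59 and 4.39 CPM in the 4 libraries of day 6.

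The lower genes differed less. Fgf1, a fibroblast growth factor, had 1205 counts with EtOH and 182 in the library labelled 4-OHT, a log2 ratio of −2.33 and a ratio of 0.198 (exact interval 0.169 to 0.232). Mgll, the lipase of monoacylglycerols, had 196 and 31 counts (−2.21), with 8.03% of its exon bases overlapping Gm26588. Egr2, an immediate early zinc finger factor, had 783 and 130 (−2.19). Tnfsf10, the death ligand TRAIL, had 697 and 141 (−1.90). The next 8 had log2 ratios of −1.85 to −1.42 and were Fcamr, Abcc6, Sdsl, Sycn, Nrp1, Dao, Klhl23 and Ros1. They include Sdsl, a serine dehydratase-like enzyme with 1528 and 401 counts, Nrp1, the semaphorin and VEGF co-receptor neuropilin 1 with 200 and 54, and Dao, the D-amino acid oxidase with 149 and 41.

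**Figure D2:**
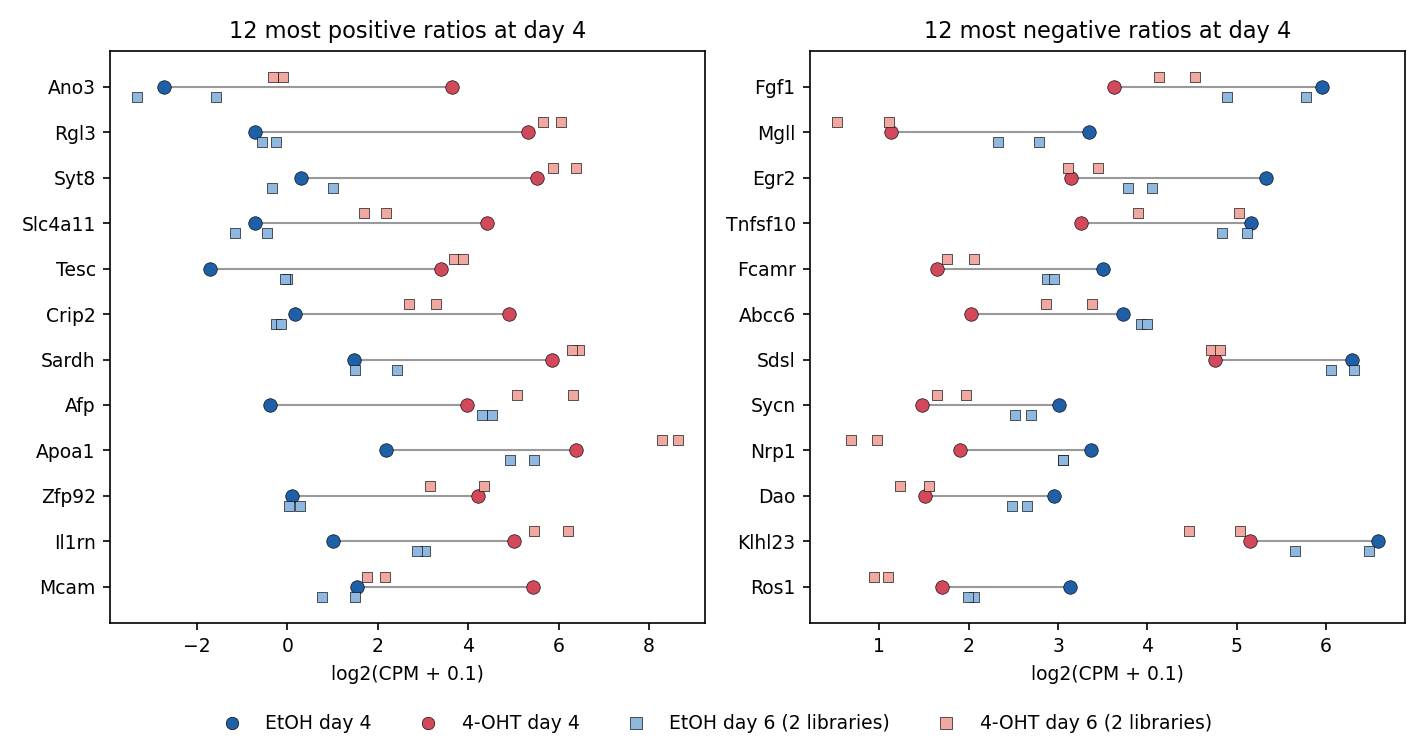
Level of the 12 genes of the most positive and the 12 of the most negative day 4 log2 ratio, as log2(CPM + 0.1), in all 6 libraries. Circles joined by a line are the day 4 pair, squares the 2 libraries of each label at day 6 (EtOH blue, 4-OHT red). Rgl3 and Syt8 lie as far apart at day 6 as at day 4, whereas all 4 day 6 squares of Mcam and Ano3 lie far below the day 4 circle of 4-OHT.

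Most of the genes past 2-fold at day 4 had the same direction at day 6, which was measured in separate libraries. Of the 260 higher genes, 249 were higher at day 6, and 134 of them passed the day 6 test (edgeR quasi-likelihood, Benjamini-Hochberg adjusted p under 0.05), which called 320 of 14066 genes (2.27%) higher. Of the 54 lower genes, 52 were lower at day 6, and 14 passed that test, which called 33 genes (0.235%) lower. These day 6 calls depended on the fit, with 353 genes called in all, 99 without EtOH replicate 1 and 839 with the replicate number as a block. Of the 353, 233 were among the 10388 genes at the level threshold of day 4. How many of those 10388 genes had the same direction on both days was not counted. The median day 6 log2 fold change was 1.23 for the 260 genes and −0.77 for the 54.

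To ask what was stronger at day 4 than at day 6, the difference between the day 4 and the day 6 log2 ratio was tested over all 6 libraries in 4 groups. By edgeR, 0 of 16031 genes (0%) passed at an adjusted p of 0.05, and 297 had an unadjusted p below it, where 802 would arise by chance. The test had 2 residual degrees of freedom, all from the day 6 replicates, and took the day 4 libraries to vary like them. DESeq2 called 6 genes and limma-voom 0. The smallest adjusted p by edgeR, 0.135, was that of Gcg. The number called depended on the day 6 libraries labelled 4-OHT, with 26 genes without replicate 1 of that group, 3 without replicate 2, and 0 without either EtOH library. Of the 26, 25 were more positive at day 4 and 19 were members of the lists below, all of them Paneth or enteroendocrine genes. Xist was also called without replicate 1, since the remaining 4-OHT library of day 6 was the one with 2 counts of it. Without replicate 2, the genes called were Gcg (difference 3.16) and the Y-linked Eif2s3y (13.2) and Ddx3y (12.8). The remaining 4-OHT library of day 6 had 0 counts of both Y-linked genes, whose day 4 means were 0.567 and 0.593 CPM.

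The 6 genes called by DESeq2, named after their values were seen, were Gcg, Cck, Mcam, Afp and Atg9b, more positive at day 4, and Akp3, more negative. Atg9b, a gene of the autophagy machinery that shares 7.53% of its exon bases with Nos3, had 760 counts with EtOH and 3197 in the library labelled 4-OHT. Its day 4 log2 ratio of 2.46 stood against a day 6 log2 fold change of 1.01 (difference 1.48, SE 0.29). Akp3, an intestinal alkaline phosphatase, had 455 and 242 counts, and its day 4 log2 ratio of −0.52 stood against 1.29 at day 6 (difference −1.78, SE 0.33). The adjusted p by DESeq2 was 0.0406 for Atg9b and 0.024 for Akp3, against 0.854 and 0.758 by edgeR.

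**Figure D3:**
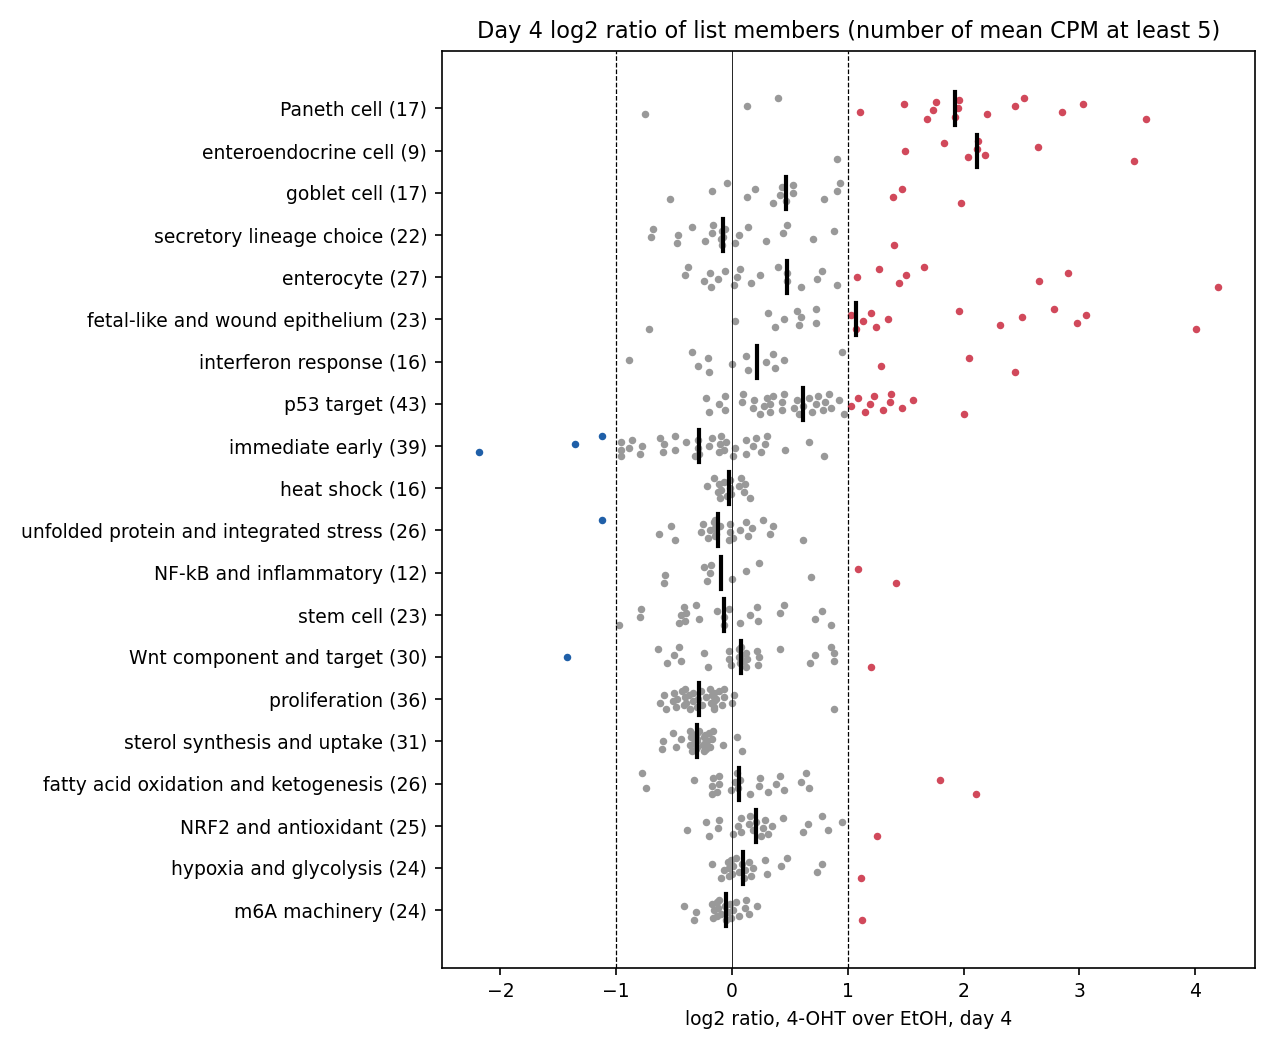
Day 4 log2 ratio, 4-OHT over EtOH (horizontal axis), of the members of 20 gene lists at a mean of at least 5 CPM. Each point is 1 gene, vertical bars are list medians, dashed lines mark 2-fold, and red and blue points lie beyond it. Paneth and enteroendocrine medians lie near 2, that of the immediate early list below 0, and the heat shock genes lie within 2-fold.

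Of the 21 lists, the enteroendocrine and Paneth cell lists had the highest medians at day 4. Of 27 Paneth cell genes, 17 had a mean of at least 5 CPM, of which 14 were at least 2-fold higher and 0 lower in the library labelled 4-OHT, with a median log2 ratio of 1.93. Of 35 enteroendocrine genes, 9 had that level, of which 8 were at least 2-fold higher and 0 lower, with a median of 2.11. Over all 10388 genes the corresponding values were 2.50% higher, 0.520% lower and a median of −0.02. At day 6 the medians of the same Paneth and enteroendocrine genes were 0.39 and 0.24. The level threshold is a mean of the pair, so genes high in 1 library can reach it through that library alone. Among those counted, Gcg, Cck, Gip, Tac1, Cpe and the defensin genes Defa39 and Defa38 lay between 2.15 and 4.87 CPM with EtOH. These members, given as examples, reached the threshold through the library labelled 4-OHT. They include most of the 9 enteroendocrine genes, so the counts and medians of both lists rest in part on that filter. At a mean of at least 1 CPM the day 4 medians were 1.85 (Paneth) and 1.35 (enteroendocrine).

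Lyz1, the lysozyme of Paneth cells, had 2146 counts (110 CPM) with EtOH and 7524 (506 CPM) in the library labelled 4-OHT at day 4. At day 6 its levels were 880 and 563 CPM with EtOH and 1828 and 748 CPM with 4-OHT, so the labels overlapped there. The day 4 EtOH library was the lowest of the 6, and the day 4 library labelled 4-OHT lay below all 4 of day 6. Defa24, an alpha-defensin, had 2790 and 8259 counts (log2 ratio 1.96). Among the other Paneth genes, the defensin genes Defa39 (95 and 879 counts, 3.57), Defa38 (2.85), Defa30 (2.45) and Defa26 (1.96), the antimicrobial ribonuclease Ang4 (173 and 1089, 3.03), and the protease Mmp7, which processes defensins (117 and 519, 2.52), were at least 2-fold higher. The defensins are near-identical copies, and their counts are uncertain one by one. Nupr1, a stress-response gene, was the 1 Paneth list gene of this level that was lower, with 1767 and 799 counts (−0.75).

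Gcg, the gene of glucagon and of glucagon-like peptides, had 50 counts (2.56 CPM) with EtOH and 440 (29.6 CPM) in the library labelled 4-OHT, a ratio of log2 3.47. At day 6 it stood at 40.8 and 48.4 CPM with EtOH and at 58.8 and 37.9 CPM with 4-OHT. The difference between the days was 3.44 (SE 0.46), with an edgeR adjusted p of 0.135 and a DESeq2 adjusted p of 2.2e-07. Cck, the hormone cholecystokinin, had 86 and 417 counts (2.64), and its levels at day 6 lay between 31.1 and 49.3 CPM, above both day 4 libraries (4.41 and 28.1 CPM). Chgb and Chga, granins of hormone granules, had 682 and 2376 counts (2.19) and 186 and 586 counts (2.03). The hormone genes Gip (47 and 162, 2.13) and Tac1 (42 and 144, 2.11), the prohormone-trimming enzyme Cpe (50 and 140, 1.83) and Reg4, a secreted lectin (514 and 1108, 1.50), were also at least 2-fold higher.

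The low side of these ratios lay in the day 4 EtOH library. It was the lowest of the 6 libraries for 15 of 17 Paneth and 9 of 9 enteroendocrine genes. The share was 15.7% of all genes and 51.9% of the 260 genes at least 2-fold higher. Some of the list genes had reached the level threshold through the library labelled 4-OHT. The summed CPM of the Paneth list was 1898 (EtOH) and 3434 (4-OHT) at day 4 and 3836 to 7696 at day 6. For the enteroendocrine list it was 122 and 428 at day 4 and 574 to 1058 at day 6. Set against the mean of the EtOH libraries of day 6, the median of the library labelled 4-OHT at day 4 was −0.49 for the Paneth and −0.67 for the enteroendocrine list, the opposite direction, and that of the day 4 EtOH library was −2.52 and −2.85. Whether the EtOH library of day 4 held fewer of these cells or the other library more was not tested.

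The goblet cell list was less uniform. Of 17 genes at the level threshold, 3 were at least 2-fold higher and 0 lower, against 2.50% and 0.520% of all genes. The list median was 0.47 at day 4 and −0.08 at day 6. Muc2, the main gel-forming mucin, had 3462 and 7292 counts (log2 ratio 1.47), the secreted lectin Zg16 had 48 and 149 (1.98), and Clca1, a secreted mucus protein, 168 and 339 (1.39). Fcgbp, the most abundant gene of the list, had a ratio of −0.18. Of the genes of the secretory choice itself, 1 of 22 was at least 2-fold different, against 3.02% of all genes. That gene was the receptor Notch3, with 265 and 534 counts (1.39), while Atoh1, the master factor of secretory fate, had 153 and 110 (−0.08), its repressor Hes1 −0.09, the Notch ligand Dll1 −0.47 and the goblet and Paneth factor Spdef −0.17. Only 2 of 20 tuft cell genes reached the level threshold, and 0 of them differed 2-fold.

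**Figure D4:**
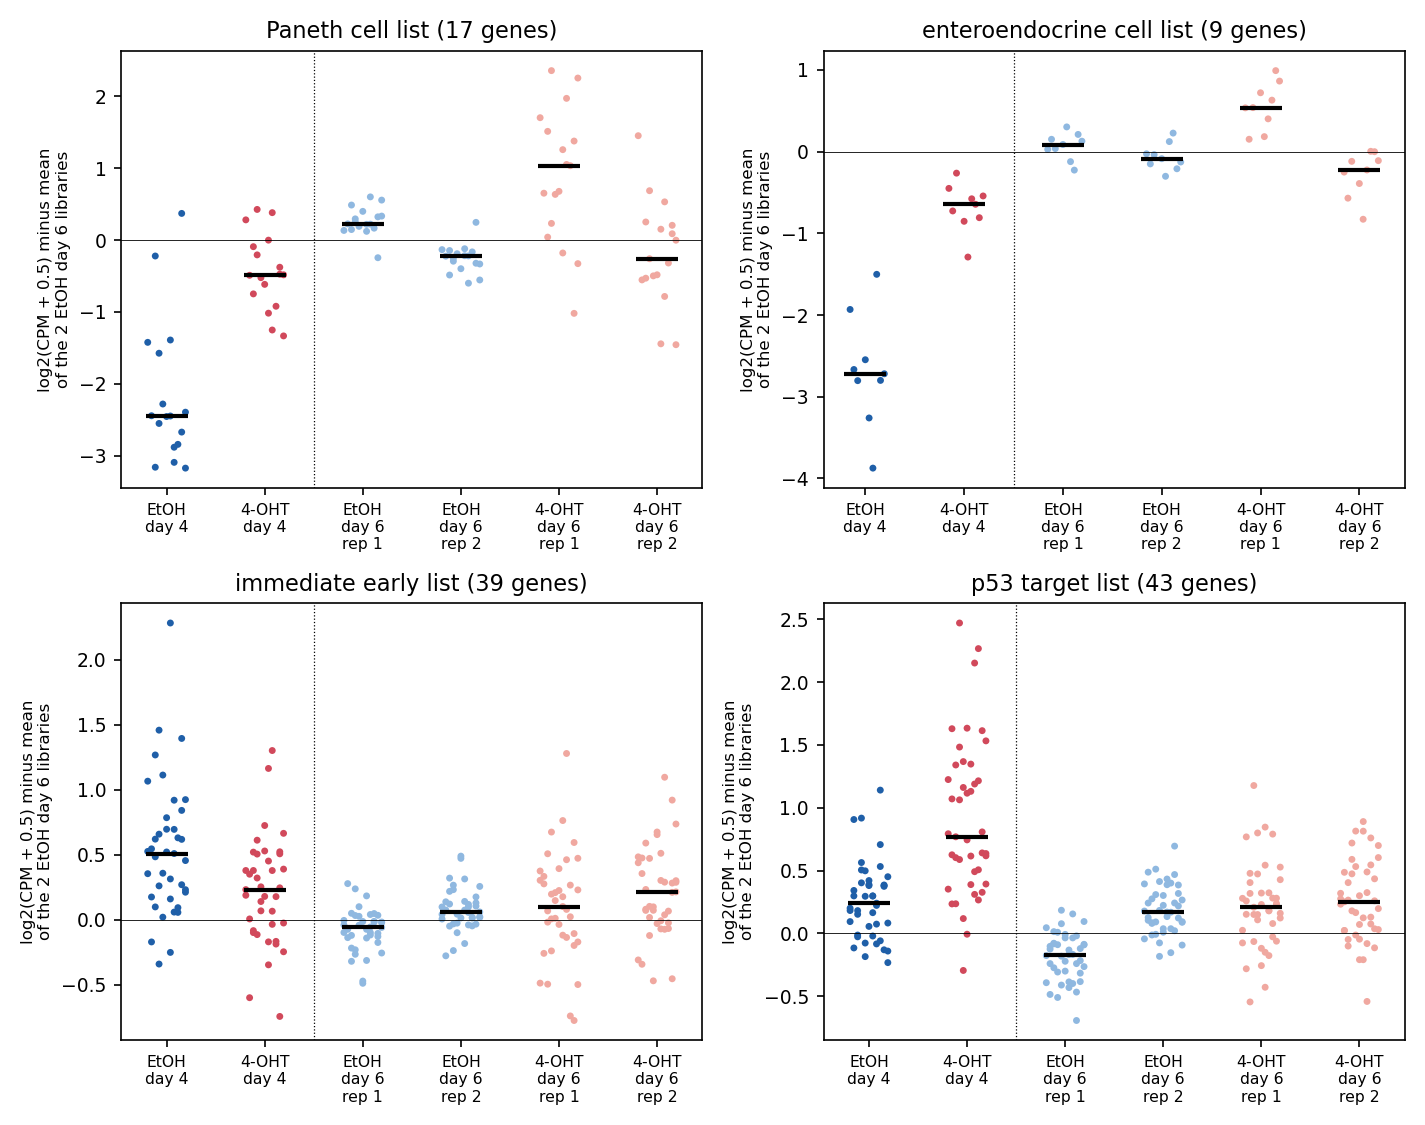
Levels of list members in each of the 6 libraries, as log2(CPM + 0.5) minus the mean of the 2 EtOH libraries of day 6. Points are genes, black bars medians, and the dotted line divides the days. The day 4 EtOH library is low for Paneth (17) and enteroendocrine (9) genes and high for immediate early genes (39), and the day 4 library labelled 4-OHT is high for p53 targets (43).

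Immediate early genes went the other way. Of 47 on the list, 39 reached the level threshold, of which 3 were lower by at least 2-fold in the library labelled 4-OHT and 0 higher by that much. The median was −0.28, with 27 of the 39 lower, and at day 6 it was 0.10. Of all 10388 genes, 0.520% were at least 2-fold lower and 2.50% higher, and the median was −0.02. The 3 list members past 2-fold were the zinc finger factor Egr2, the stress-induced factor Atf3 (2105 and 625 counts, −1.36), and Fosb, a partner of Jun proteins in the AP-1 factor (5844 and 2049, −1.12). Fos itself had 15007 counts (770 CPM) with EtOH and 6304 (424 CPM) in the library labelled 4-OHT (−0.86), and at day 6 between 350 and 394 CPM in all 4 libraries. Fosb stood at 300 and 138 CPM at day 4, at 49.2 and 76.3 CPM with EtOH at day 6, and at 104 and 75.7 CPM with 4-OHT at day 6. Both day 4 libraries thus lay above day 6 for these 2 genes, the EtOH library furthest.

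Other members close to 2-fold lower were Egr1 (10377 and 4080 counts, −0.96), the orphan receptor Nr4a1 (3131 and 1230, −0.96), the phosphatase Dusp1 (1348 and 529, −0.96) and Jun (7299 and 3202, −0.80). Members on the other side included Dusp6, a phosphatase that limits ERK signalling (792 and 1051, 0.80), and Phlda1 (867 and 1050, 0.67), and Myc was at 0.12. The day 4 EtOH library was the highest of the 6 in 23 of 39 genes (59.0%). The share was 15.7% of all genes and 63.0% of the 54 genes at least 2-fold lower. Relative to day 6, the difference in log2 ratio was −1.61 (SE 0.39) for Fosb and −0.94 (SE 0.29) for Fos, and neither passed the edgeR test (adjusted p 1.00 for both). With the EtOH libraries of day 6 in place of the day 4 one, the list median was 0.23. Heat shock genes, which respond to protein damage, showed 0 of 16 at 2-fold in either direction. The unfolded protein and integrated stress list showed 1 of 26, the factor Atf5 (2972 and 1041 counts, −1.12). Of all 10388 genes, 3.02% differed that much.

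The promoters of the immediate early and p53 genes are shown because most members of each list lay on 1 side of 0 at day 4. The strand setting of the counting is not given in the sources used here, so counts of genes with overlapping neighbours are uncertain. That touches Jun (16.6% of exon bases, Junos), Dusp6 (23.0%, Gm56965), Phlda1 (33.0%, Gm28592), Cdkn1a (12.5%, Dino) and, among genes of other lists, Dll1 (34.8%, Fam120b), Nupr1 (21.8%, Gm39087), Ada (20.2%, Pkig) and Cnn3 (16.1%, Gm42928). Sequences are the 250 bases before a start site, from RefSeq on GRCm38.p6, a build other than that of the counts. Egr2 has 5 such windows, Cdkn1a 2 and Il1rn, shown further below, 3. For these genes the first window that holds the motif was picked, and the others are not shown. Capitals mark the motif searched on both strands. For Fos, Fosb and Egr2 this is TGACG, the core of the cAMP response element bound by CREB and ATF factors.
Fos, chr12:85473640-85473889, plus strand: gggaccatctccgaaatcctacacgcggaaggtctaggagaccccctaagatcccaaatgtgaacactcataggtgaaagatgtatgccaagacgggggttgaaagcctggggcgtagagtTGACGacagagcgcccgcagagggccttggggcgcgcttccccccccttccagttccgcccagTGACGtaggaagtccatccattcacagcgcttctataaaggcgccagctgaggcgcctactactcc
Fosb, chr7:19310046-19310295, minus strand: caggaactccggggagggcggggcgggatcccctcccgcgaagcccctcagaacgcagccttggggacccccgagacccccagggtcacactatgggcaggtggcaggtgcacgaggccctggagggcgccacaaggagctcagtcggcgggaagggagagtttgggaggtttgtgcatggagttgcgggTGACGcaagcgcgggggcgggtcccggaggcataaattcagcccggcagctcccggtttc
Egr2, chr10:67537619-67537868, plus strand: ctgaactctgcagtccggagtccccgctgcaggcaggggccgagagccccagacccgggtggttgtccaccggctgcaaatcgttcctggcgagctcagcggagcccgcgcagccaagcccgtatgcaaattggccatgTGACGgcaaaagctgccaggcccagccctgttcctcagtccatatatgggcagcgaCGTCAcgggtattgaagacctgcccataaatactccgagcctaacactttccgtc
This core was found in 20 of 32 immediate early genes with a window of 250 bases before to 50 after the start (62.5%), against 23.1% of all 27025 genes with a window and 36.9% of those at a mean of at least 5 CPM. The full palindromic element, which contains the core, was found in 4 of the 32 (12.5%), against 2.03% of all. The core was not particular to lower genes, since 11 of 38 genes at least 2-fold lower (28.9%) and 44 of 198 at least 2-fold higher (22.2%) had it. A match describes letters in a window and shows no binding.

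Genes known as p53 targets were higher together in the library labelled 4-OHT. Of 50, 43 reached the level threshold, of which 11 were at least 2-fold higher and 0 lower, with 38 higher at all and a median of 0.62. The median of the same genes at day 6 was 0.17. Of all 10388 genes, 2.50% were at least 2-fold higher and 0.520% lower at day 4, and the median was −0.02. Cdkn1a, the p21 inhibitor of cyclin-dependent kinases, had 2049 counts (105 CPM) with EtOH and 4047 (272 CPM) in the library labelled 4-OHT, a log2 ratio of 1.37. At day 6 it stood at 94.8 and 120 CPM with EtOH and at 156 and 198 CPM with 4-OHT, so the day 4 library labelled 4-OHT was the highest of the 6. Ccng1, which encodes cyclin G1, had 4202 and 6524 counts (216 and 439 CPM, 1.03) and lay between 143 and 247 CPM at day 6.

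The other members past 2-fold were Ddit4l, an inhibitor of mTOR signalling (81 and 253 counts, 2.01), Trp53inp1, a p53-induced nuclear protein (594 and 1344, 1.57), the carbonyl reductase Dcxr (1.47), the polo-like kinase Plk2 (505 and 996, 1.37), the phosphatase Ptpn14 (1.30), Phlda3, which restrains Akt (1.23), the lipase Abhd4 (1.19), the receptor Eda2r (1.15) and the repair nuclease Ercc5 (1.08). Mdm2, the ubiquitin ligase that degrades p53, had 1228 and 1837 counts (0.97), and Bax, a death effector, 904 and 1057 (0.62). The 5 lower members lay close to 0, and the lowest were the stress sensor Sesn1 (−0.22) and the death effector Pmaip1, or Noxa (1370 and 908 counts, −0.20). The day 4 library labelled 4-OHT was the highest of the 6 in 36 of the 43 genes. The share was 13.2% of all genes and 35% of the 260 at least 2-fold higher. Set against the EtOH libraries of day 6, the median of that library stayed above 0, at 0.78, and that of the day 4 EtOH library was 0.27. The difference between days was 0.68 (SE 0.33) for Cdkn1a and 2.05 (SE 0.61) for Ddit4l, and 0 members passed the edgeR test of that difference.

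The promoters of Cdkn1a and Ccng1 follow, with the p53 consensus in capitals, searched on both strands. For Cdkn1a it is a pair of p53 decamers at the ends of the capitals, and the bases between them are a spacer outside the consensus. For Ccng1 it is a single decamer.
Cdkn1a, chr17:29090729-29090978, plus strand: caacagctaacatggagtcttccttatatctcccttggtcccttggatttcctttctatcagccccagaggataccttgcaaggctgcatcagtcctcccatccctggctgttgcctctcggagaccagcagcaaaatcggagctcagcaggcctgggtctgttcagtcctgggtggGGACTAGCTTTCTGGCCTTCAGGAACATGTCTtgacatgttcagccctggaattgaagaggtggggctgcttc
Ccng1, chr11:40755287-40755536, minus strand: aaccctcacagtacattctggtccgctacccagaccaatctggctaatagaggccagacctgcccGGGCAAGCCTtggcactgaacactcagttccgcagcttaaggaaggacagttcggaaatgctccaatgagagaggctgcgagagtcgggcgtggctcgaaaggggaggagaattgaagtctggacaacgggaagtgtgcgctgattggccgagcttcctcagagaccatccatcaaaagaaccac
A single p53 decamer was found in 14 of 44 p53 list genes with a window (31.8%), against 9.55% of all genes, and the paired decamers, which contain it, in 1 of 44 (Cdkn1a) and in 20 of the 27025 (0.074%). The single decamer was found in 21 of the 198 genes at least 2-fold higher (10.6%), against 7.87% of genes at a mean of at least 5 CPM.

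Enterocyte genes were mixed at day 4. Of 27 at the level threshold, 20 were higher and 7 lower, with a median of 0.47 at day 4 and 1.09 at day 6. By at least 2-fold, 8 were higher and 0 lower, against 2.50% and 0.520% of all genes. Among them, after Apoa1, were the keratin Krt20 of surface enterocytes (67 and 392 counts, 2.90), the apolipoprotein Apoc3 (39 and 195, 2.65), the fatty acid binding protein Fabp1 (1195 and 2873, 1.65), the aminopeptidase Anpep (2854 and 6155, 1.50), the retinol binding protein Rbp2 (1.45) and the alkaline phosphatase Alpi (1507 and 2771, 1.27). The sucrase-isomaltase Sis had 2454 and 1923 counts (0.04) at day 4 and 1.47 at day 6. The adenosine deaminase Ada had 0.78 at day 4 and 2.49 at day 6, a difference of −1.68 (SE 0.41) that did not pass the edgeR test. Of 27 differences between the days, 22 were negative, and 0 passed that test. The day 4 EtOH library was the lowest of the 6 in 15 of the 27 genes (55.6%). The share was 15.7% of all genes and 51.9% of the 260 at least 2-fold higher, so it was not particular to this list. Set against the EtOH libraries of day 6, the list median was 0.18 for the library labelled 4-OHT at day 4 and −0.32 for the day 4 EtOH library.

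Of 23 genes of fetal-like and wound epithelium, 22 were higher at day 4, 13 of them by at least 2-fold, against 2.50% of all genes. The median was 1.07 at day 4 and 1.01 at day 6, the day 4 ratio was the larger one in 18 of 23 genes, and 0 passed the edgeR test of the difference. The day 4 EtOH library was the lowest of the 6 in 13, against 15.7% of all genes and 51.9% of the 260 at least 2-fold higher. Against the EtOH libraries of day 6, the median of the library labelled 4-OHT at day 4 was 0.92. After Il1rn, the largest were the growth factor Ereg (20 and 139 counts, 3.06), the annexin Anxa1 (33 and 209, 2.98), Ly6a, or Sca-1, a marker of regenerating crypts (139 and 739, 2.78), Sprr1a, a cornified envelope protein (84 and 370, 2.50), S100a6 (160 and 615, 2.32), Anxa3 (513 and 1526, 1.96) and the tight junction protein Cldn4 (1999 and 3891, 1.35). Cnn3, a calponin, was the 1 lower member, with 2682 and 1247 counts (−0.71). The motif TGACTCA of AP-1, searched on both strands, is shown in capitals for Sprr1a and Il1rn because the share of genes with it was above that of all genes in this list.
Sprr1a, chr3:92485882-92486131, minus strand: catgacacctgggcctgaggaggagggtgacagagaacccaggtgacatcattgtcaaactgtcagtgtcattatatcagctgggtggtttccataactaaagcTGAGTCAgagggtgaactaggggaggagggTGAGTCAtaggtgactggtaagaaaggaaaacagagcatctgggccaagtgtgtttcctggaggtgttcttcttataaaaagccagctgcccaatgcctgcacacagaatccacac
Il1rn, chr2:24336610-24336859, plus strand: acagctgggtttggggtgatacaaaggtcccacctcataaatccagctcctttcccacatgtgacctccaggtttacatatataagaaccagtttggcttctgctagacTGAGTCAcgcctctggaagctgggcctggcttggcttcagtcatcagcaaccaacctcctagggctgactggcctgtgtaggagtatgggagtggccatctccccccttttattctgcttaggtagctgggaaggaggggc
Of the 37 genes of this list, 23 had a window, counted whatever their level, and the motif was found in 8 of these (34.8%). These 23 were picked by window and not by the level threshold used above. The motif was also found in 26 of 198 genes with a window at least 2-fold higher (13.1%). The share was 5.95% of all genes with a window and 4.35% of those at a mean of at least 5 CPM.

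**Figure D5:**
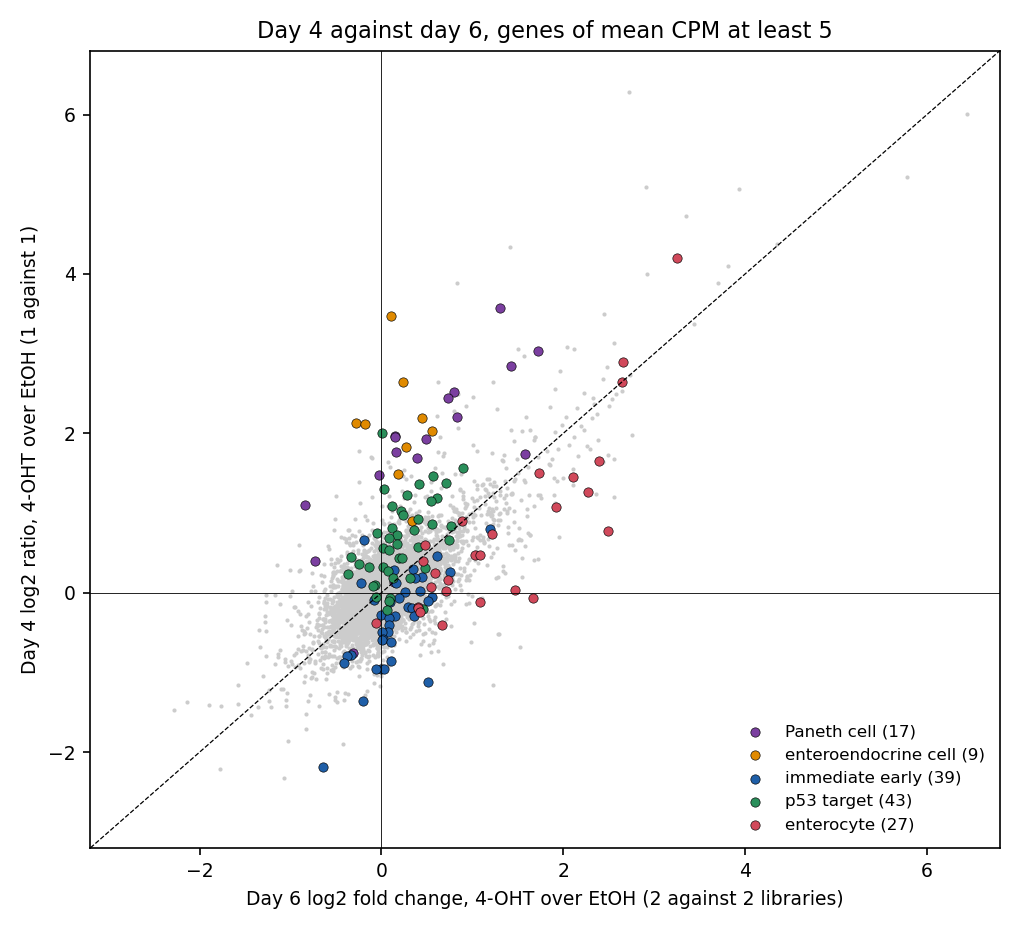
Day 4 log2 ratio (vertical axis, 1 library against 1) against day 6 log2 fold change (horizontal axis, 2 against 2) for 10387 genes at a mean of at least 5 CPM at day 4, with 5 lists in colour. The dashed line marks equal values. All 9 enteroendocrine and 16 of 17 Paneth genes lie above it and 22 of 27 enterocyte genes below, while 38 of 43 p53 targets lie above 0 and 27 of 39 immediate early genes below 0 at day 4.

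Stem cell and proliferation genes differed little in size. Of 23 stem cell genes, 0 differed 2-fold and the median was −0.07, with Olfm4, the secreted stem cell marker, at 28844 and 12723 counts (−0.79) and Ascl2, a stem cell transcription factor, at 414 and 574 (0.86). Of 36 proliferation genes, 34 were lower and 0 differed 2-fold, with a median of −0.28. Of all 10388 genes, 3.02% differed 2-fold and the median was −0.02. For 26 of the proliferation genes the day 4 library labelled 4-OHT was the lowest of the 6. The share was 21.99% of all genes and 50% of the 54 genes at least 2-fold lower. The kinase Bub1 of the mitotic checkpoint (−0.59) and the mitotic kinesin Kif11 (−0.57) were among the lowest, and the cyclin Ccnd1, 48.4% of whose exon bases overlap LTO1, was the highest (0.88). Sterol synthesis and uptake genes showed a like pattern, with 29 of 31 lower, 0 past 2-fold and a median of −0.30. Of 30 Wnt genes, the ligand Wnt3, made by Paneth cells, was at least 2-fold higher (64 and 114 counts, 1.20) and the secreted inhibitor Sfrp5 at least 2-fold lower (190 and 53, −1.42). Axin2, a feedback target of Wnt signalling, was at −0.46 and the list median was 0.08.

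In each of the remaining lists 1 to 3 genes passed 2-fold, a larger share than the 3.02% of all 10388 genes. Of 16 interferon response genes these were Oasl1 (136 and 572 counts, 2.45), the master factor Irf7 (61 and 197, 2.05) and Ifi27 (1.29), all higher, with a list median of 0.21. Of 12 NF-kB and inflammatory genes they were the chemokine Cxcl16 (113 and 232, 1.41), 84.8% of whose exon bases overlap Med11, and the oxidase Duox2 (126 and 206, 1.09). Of these 12, however, 6 were higher and 6 lower, with a list median of −0.09. The summed CPM of the whole list was 3407 with EtOH and 2447 in the library labelled 4-OHT. In lipid metabolism the genes past 2-fold were the thiolase Acaa1b (49 and 166, 2.10) and the factor Creb3l3 (90 and 243, 1.80) of 26 genes of fatty acid oxidation and ketogenesis. Single genes were the glutathione transferase Gsta1 (314 and 574, 1.26) of 25 antioxidant genes and hexokinase Hk1 (1537 and 2540, 1.11) of 24 genes of hypoxia and glycolysis. The letters GGACT, a common form of the m6A site, occurred at a median of 1.04 per kb in the GENCODE M39 canonical transcripts of 10072 genes, 1.09 in 256 genes at least 2-fold higher and 1.01 in 47 at least 2-fold lower. The share of these transcripts with any GGACT was 94.1%, 89.5% and 93.6% in the same order. Their median lengths were 3526, 2796 and 3676 bases.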

How the data were processed

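RNA-seq was made from 6 libraries of Lgr5-GFP+ organoid cells, 1 per label at day 4 and 2 per label at day 6. Per the labels' protocols, mRNA was selected with poly-T beads, fragmented and copied with random hexamers. The authors deposited raw read counts per gene, 1 file per library. STAR and the build mm39 are named in the submitters' processing notes, while the annotation, counter and strand setting are not given in the sources used here. Summary lines (unmapped, multimapping, no feature and ambiguous reads, 19.3% to 26.7% of the lines' total) were left out of library sizes. Of 56884 gene IDs, 56323 (holding 99.96% of counts) were matched to GENCODE M39 symbols on GRCm39. Members and gene lists were chosen with earlier results of these data known.

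Counts were scaled by TMM over all 6 libraries in edgeR 4.0.16 (R 4.3.3). The day 4 log2 ratio is the difference of log2 CPM with a prior count of 2, described for genes at a mean of at least 5 CPM in the pair, with no test. The day 6 comparison and the difference between days were tested with edgeR's quasi-likelihood fit, after a filter with a minimum count of 10, and adjusted by Benjamini-Hochberg over all genes tested at 0.05. Both tests were tried on simulated data. Alternatives used DESeq2 1.42.0, limma 3.58.1 (voom), other scalings, filters and prior counts, each library left out, and the replicate number as a block. Named genes were Ythdf2, Kif26b, Lgr5, the 12 protein-coding genes of the most positive and of the most negative day 4 ratio, and up to 8 list members past 2-fold. Other genes named, list members under 2-fold included, were chosen after their values were seen. Reads carry no molecular identifiers that the labels name, so intervals cover counting error only. A result for 1 enterocyte list member is not reported here.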

Additional observations from a re-analysis of the deposited data

Results flagged for a closer look

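Summed CPM was screened for the 22 lists, marker lists included, with at least 3 genes at the level threshold. Named and listed genes past 2-fold at day 4 were screened too. In 3 measures the labels did not overlap at day 6 and lay in the direction opposite to day 4. The differences between days were not tested for the list sums. With 2 libraries per label at day 6 such a pattern can arise by chance, and how often was not computed. The summed CPM of the goblet cell list was 1.19 times as high in the library labelled 4-OHT as with EtOH at day 4 (2785 and 2342 CPM). At day 6 both libraries labelled 4-OHT (3322 and 2985 CPM) lay below both EtOH libraries (3855 and 3905 CPM). The summed CPM of the immediate early list was 0.716 times as high in the library labelled 4-OHT at day 4 (3514 and 4908 CPM), whereas at day 6 both libraries labelled 4-OHT (3312 and 3410 CPM) lay above both EtOH libraries (3010 and 3173 CPM). Vim, an intermediate filament gene of mesenchymal cells used here as a fibroblast marker, had a day 4 log2 ratio of 1.12 from 65 and 110 counts. At day 6 it stood at 12.3 and 10.7 CPM with EtOH and at 9.81 and 9.89 CPM in the libraries labelled 4-OHT. The difference between days for Vim was 1.40 (SE 0.50) and did not pass the edgeR test (adjusted p 1.00). Of its exon bases, 12.3% overlap Gm54102.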

How the results depend on the processing

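With TMM over the pair alone, median-of-ratios factors, library totals, a prior count of 0.5 or protein-coding genes alone, 256 to 282 genes were at least 2-fold higher and 47 to 55 lower, and the median of all genes stayed between −0.03 and 0.02. The 98 named genes followed individually kept their direction under the scalings and the prior count. The level threshold moved the counts, to 578 higher and 186 lower at a mean of at least 1 CPM and to 98 and 25 at 20 CPM. The enteroendocrine median was 1.35 at 1 CPM. With the EtOH libraries of day 6 as control, an alternative chosen after seeing the data, 283 genes were higher and 100 lower, of which 168 and 26 were shared with the day 4 comparison. Its level threshold was reset for that pair of groups, and the Paneth (−0.58), goblet (−0.43), enteroendocrine (−0.75) and immediate early (0.23) medians turned direction. For the difference between days, DESeq2 called 6 genes and voom, median-of-ratios factors and no filter 0. Leaving out 1 day 6 library gave 0 to 26 calls, the 26 arising when 4-OHT replicate 1 was dropped and 3 when its replicate 2 was. In the day 6 test, leaving out 1 library gave 99 (without EtOH replicate 1) to 409 calls, against 353. With the replicate number as a block, the difference between days had 0 calls (424 at an unadjusted p under 0.05) and day 6 had 839. Deviations of same-numbered day 6 libraries correlated at 0.27, but 2 pairs share only a number by the labels, and the numbers also divide the libraries by Xist and Y-linked transcripts. The causes of these changes were not tested. With 1 library per label at day 4, depth bounds counting error alone, and genes under 5 CPM were not described except where named.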

Other observations

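Neurog3, the factor that starts enteroendocrine fate, and Neurod1, which follows it, were both under 5 CPM on average at day 4. Neurog3 had 45 counts with EtOH and 71 in the library labelled 4-OHT, and Neurod1 had 43 and 38.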
